A study of Homo sapiens with 8 samples.

Results

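Genes of cholesterol and fatty acid synthesis were measured in 8 RNA-seq libraries of SUDHL-4 cells, a human line from a diffuse large B-cell lymphoma (DLBCL) of germinal-centre type. The set holds 34 genes chosen by symbol, of 15597 genes in the files, and all 34 were present in all 8 files. They are 20 sterol synthesis enzymes, 6 genes of SREBP regulation and sterol transport, and 8 fatty acid synthesis enzymes. The 4 groups were FDX1-OE cells (genotype label FDX1 overexpression) in elesclomol (ES), FDX1-OE cells in DMSO, control cells (genotype label WT) in ES, and control cells in DMSO, with 2 libraries each. ES was given at 5 nM, exposure lasted 48 h in every group, and all groups share the line, medium and serum. The sources used here do not state the promoter or vector of the FDX1 construct, what the control cells carry, or whether FDX1-OE cells are 1 clone or a pool. ES is a small molecule that carries copper into cells, and FDX1 is a mitochondrial ferredoxin that passes electrons to other enzymes.

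Animal cells make cholesterol from acetyl-CoA through mevalonate, isoprenoid diphosphates, squalene and lanosterol. Fatty acids are made from the same acetyl-CoA. Both arms are transcribed under SREBP factors, which are made as precursors in the membrane of the endoplasmic reticulum. The escort protein SCAP carries the precursor to the Golgi, where it is cut, and INSIG proteins hold SCAP back when sterols are plentiful. SREBF2 encodes the factor best known for the sterol arm, and SREBF1 encodes factors best known for the fatty acid arm, also as a target of the oxysterol receptor LXR.

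The library totals lay between 33435438 and 35883528 reads, and 22 of the 34 genes had at least 1000 reads in every library. FDX1 was at 82.5 and 84.8 FPKM in FDX1-OE cells in ES, against 72.4 and 69.9 FPKM in FDX1-OE cells in DMSO, and at 21.3 and 21.4 FPKM in control cells in ES, against 25.6 and 22.2 FPKM in control cells in DMSO. FPKM are reads scaled to gene length and to the library total. The defining B-cell markers were present in every library. Over 8 markers they summed to 1793 and 1787 FPKM in FDX1-OE cells in ES, against 1442 and 1455 FPKM in FDX1-OE cells in DMSO. In control cells the sum was 1784 and 1738 FPKM in ES, against 1534 and 1549 FPKM in DMSO. CD79A was the largest part of it. The summed level of 5 myeloid markers was 36.6 and 39.6 FPKM in FDX1-OE cells in ES, against 8.10 and 7.02 FPKM in FDX1-OE cells in DMSO, and 16.4 and 12.1 FPKM in control cells in ES, against 4.25 and 3.94 FPKM in control cells in DMSO. CD68 and FCER1G made up nearly all of it, and LYZ, CD14 and CSF1R were at most 0.28 FPKM in any library. Over 4 T and NK cell markers the sum was 8.47 and 7.58 FPKM in FDX1-OE cells in ES, against 5.23 and 7.19 FPKM in FDX1-OE cells in DMSO, and 7.09 and 7.41 FPKM in control cells in ES, against 4.10 and 5.03 FPKM in control cells in DMSO. CD3E made up nearly all of that sum, and CD3D and CD3G were at most 0.0345 FPKM. Over 6 epithelial and stromal markers it was 10.4 and 11.9 FPKM in FDX1-OE cells in ES, against 12.9 and 15.4 FPKM in FDX1-OE cells in DMSO, and 9.20 and 10.0 FPKM in control cells in ES, against 13.7 and 12.2 FPKM in control cells in DMSO, nearly all from DCN. The B-cell, myeloid and T and NK sums were thus higher and the epithelial and stromal sum lower in ES in both genotypes, and their part in the results was not tested. In bulk RNA, fewer cells of a type and less RNA per cell cannot be told apart.

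The 34 genes covered a wide range of levels. ACLY, FASN, FDPS and SCD had the highest mean levels over the 8 libraries, at 116, 83.6, 81.1 and 61.7 FPKM. The lowest tested members were INSIG2, GGPS1, ELOVL6, FADS2 and FADS1, between 1.96 and 3.62 FPKM. Of the 34 genes, 32 had at least 1 FPKM in at least 2 libraries and were tested. STARD4, a sterol transfer protein, lay between 0.43 and 0.80 FPKM and ACSS2, a cytosolic acetyl-CoA synthetase, had at most 5 reads, so neither was tested in that fit. In a fit without the filter on low values, STARD4 rose with ES in both genotypes (log2 change 0.28, adjusted p = 0.00229 in FDX1-OE cells and log2 change 0.19, adjusted p = 0.017 in control cells).

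With ES, 12 of 20 sterol enzymes rose in FDX1-OE cells and 3 in control cells, while 4 of 7 fatty acid enzymes tested fell in FDX1-OE cells and 3 in control cells. FADS2 was the one fatty acid enzyme that rose. A change was called at an adjusted p below 0.05 (limma on log2(FPKM + 1), adjusted over all 9805 genes tested). In FDX1-OE cells 15 members were called higher and 8 lower with ES, where 37% of all genes tested were called higher and 19.2% lower, 56.2% in all. In control cells 4 members were called higher and 10 lower, where 25.5% of all genes tested were called higher and 12.9% lower, 38.4% in all. Of the sterol enzymes 2 were lower in FDX1-OE cells and 5 in control cells, and their median log2 change was 0.30 in FDX1-OE cells and -0.02 in control cells. The median of the fatty acid enzymes was -0.29 in FDX1-OE cells and -0.15 in control cells. Of 5 regulators tested, 2 were higher and 2 lower in FDX1-OE cells and 2 lower in control cells. The median over all genes tested was 0.09 in FDX1-OE cells and 0.06 in control cells. Scaling the libraries by median ratios shifted the median of all genes by -0.13 in FDX1-OE cells, and 11 members were then higher and 9 lower there. FDFT1, CYP51A1, GGPS1 and SREBF2 were no longer called in FDX1-OE cells after that scaling and SCD was called lower, and in control cells HMGCS1 (adjusted p = 0.0454), FDPS (0.0118) and ACACA (0.0136) were also called lower. In limma without the filter on low values, CYP51A1 (adjusted p = 0.0557), GGPS1 (0.109) and SCAP (0.0687) were not called in FDX1-OE cells. Nor were EBP (0.0947) and ACLY (0.0649) called in control cells in that fit. The 2 responses to ES share no library, and since separate cultures are not stated for replicates, p-values measure only the spread between these libraries.

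**Figure D1:**
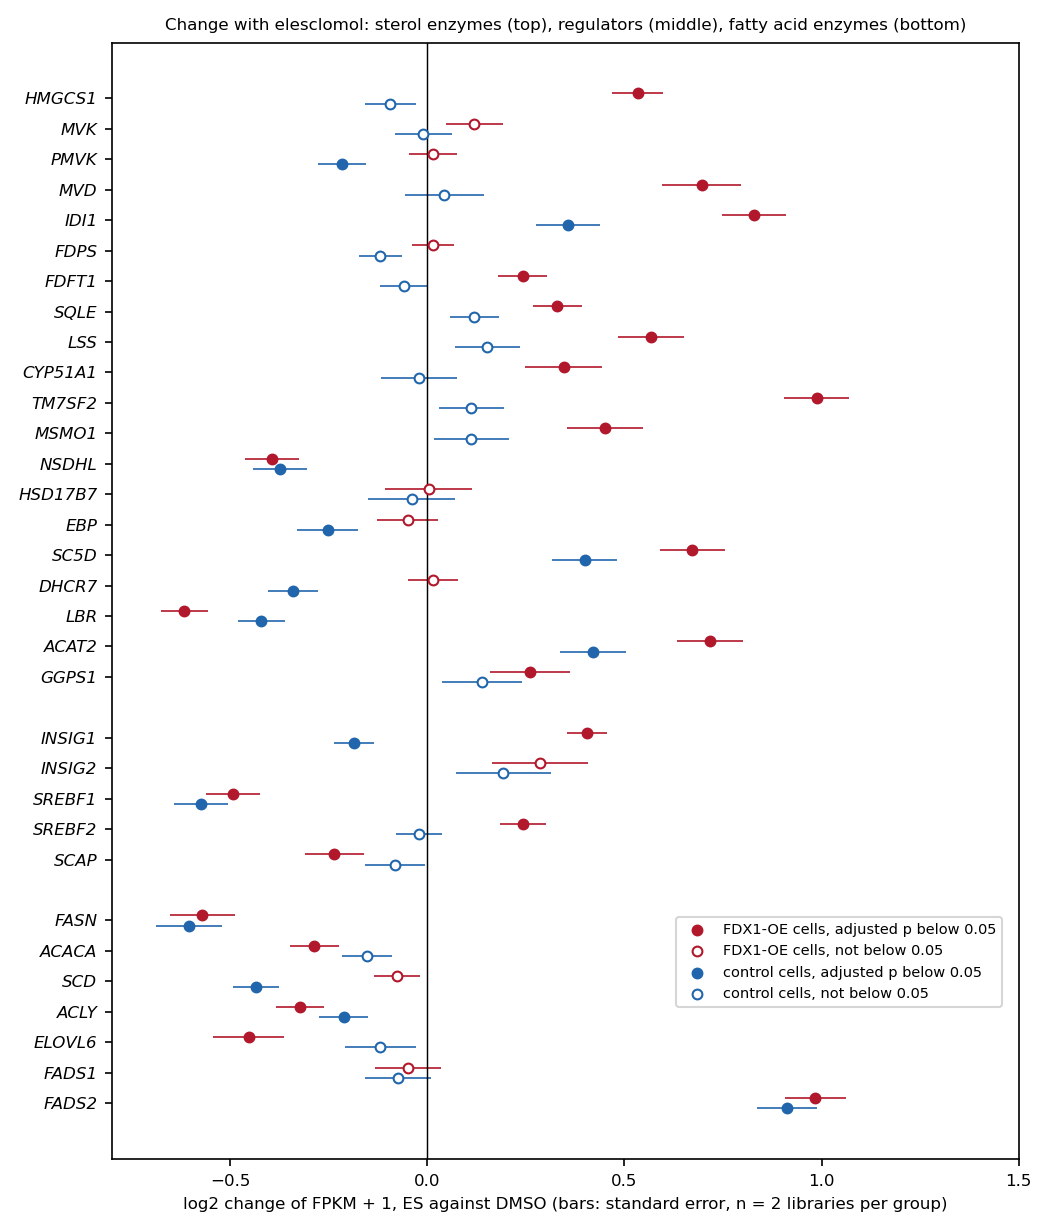
Log2 change of FPKM + 1 with ES for each of the 32 members tested, in FDX1-OE cells (red) and control cells (blue), with the standard error as a bar and a filled point where the adjusted p was below 0.05. Most sterol enzymes lie to the right in FDX1-OE cells, up to TM7SF2 at 0.99, while FASN and SREBF1 lie to the left in both genotypes and FADS2 to the right in both.

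In the early steps of the sterol arm, the rise in FDX1-OE cells was largest at IDI1 and ACAT2. ACAT2, the cytosolic thiolase that joins acetyl-CoA units, was at 41.0 and 46.6 FPKM in FDX1-OE cells in ES, against 26.6 and 25.8 FPKM in FDX1-OE cells in DMSO, and at 36.8 and 34.1 FPKM in control cells in ES, against 28.4 and 24.2 FPKM in control cells in DMSO. In both genotypes the ES libraries were all above the DMSO libraries. ACAT2 rose in FDX1-OE cells (log2 change 0.72, SE 0.08, adjusted p = 5.17e-05) and in control cells (log2 change 0.42, SE 0.08, adjusted p = 0.00318). HMGCS1, which makes HMG-CoA, was at 28.3 and 29.1 FPKM in FDX1-OE cells in ES, against 18.9 and 20.1 FPKM in FDX1-OE cells in DMSO, and at 18.8 and 18.5 FPKM in control cells in ES, against 21.0 and 19.0 FPKM in control cells in DMSO. The FDX1-OE cells in ES stood above all other libraries, and both control ES libraries lay below the lowest control DMSO library by a small margin. HMGCS1 rose 1.45-fold on the FPKM + 1 scale in FDX1-OE cells (log2 change 0.53, SE 0.06, adjusted p = 6.39e-05), and in control cells the change was -0.09 with a 95% interval of -0.24 to 0.05 and adjusted p = 0.272.

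MVD, which decarboxylates mevalonate diphosphate to the first isoprenoid unit, was at 26.2 and 24.8 FPKM in FDX1-OE cells in ES, against 16.6 and 14.1 FPKM in FDX1-OE cells in DMSO, and at 19.2 and 15.6 FPKM in control cells in ES, against 16.1 and 17.5 FPKM in control cells in DMSO. The FDX1-OE libraries in ES were above all others, and the control groups overlapped. MVD rose in FDX1-OE cells (log2 change 0.70, SE 0.10, adjusted p = 0.000199), and its change in control cells was 0.04 (adjusted p = 0.754). IDI1, the isomerase of that unit, was at 18.5 and 21.7 FPKM in FDX1-OE cells in ES, against 10.5 and 11.2 FPKM in FDX1-OE cells in DMSO, and at 15.0 and 13.9 FPKM in control cells in ES, against 11.3 and 10.8 FPKM in control cells in DMSO. Every ES library was above every DMSO library, and the FDX1-OE ES libraries were the highest. IDI1 rose 1.78-fold in FDX1-OE cells (log2 change 0.83, SE 0.08, adjusted p = 1.64e-05) and 1.28-fold in control cells (log2 change 0.36, SE 0.08, adjusted p = 0.00627). MVK and PMVK add phosphates to mevalonate ahead of MVD. MVK lay between 7.88 and 9.24 FPKM in all libraries and was called in neither genotype, and PMVK, between 24.4 and 29.2 FPKM, fell in control cells (log2 change -0.22, adjusted p = 0.0184) with a change of 0.01 in FDX1-OE cells. The PMVK call in control cells was lost on leaving out control DMSO replicate 2 (adjusted p = 0.097), control ES replicate 1 (0.059) and also control ES replicate 2 (0.0698).

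Of the prenyl diphosphate synthases, FDPS makes farnesyl diphosphate for sterols and other isoprenoids, and it lay between 74.8 and 86.6 FPKM and was called in neither genotype. GGPS1, which makes geranylgeranyl diphosphate for protein prenylation, lay between 2.04 and 3.08 FPKM and rose in FDX1-OE cells by a log2 change of 0.26 (adjusted p = 0.0467). That call was lost, with adjusted p between 0.0619 and 0.301 without either control DMSO library, either FDX1-OE DMSO library or FDX1-OE ES replicate 2. The RefSeq table also lists pseudogene copies of IDI1, FDPS, CYP51A1, HSD17B7 and SCD, and the sources used here do not state how reads were shared among copies, so levels of these 5 genes are less certain.

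The squalene and lanosterol steps moved in FDX1-OE cells. FDFT1, squalene synthase, lay between 43.3 and 54.3 FPKM and rose in FDX1-OE cells (log2 change 0.24, adjusted p = 0.00663), a call lost on leaving out FDX1-OE DMSO replicate 2 (adjusted p = 0.0551) and on leaving out FDX1-OE ES replicate 2 (0.0523). SQLE, squalene epoxidase, was at 37.9 and 41.1 FPKM in FDX1-OE cells in ES, against 31.8 and 30.5 FPKM in FDX1-OE cells in DMSO, and at 34.0 and 36.3 FPKM in control cells in ES, against 31.5 and 33.0 FPKM in control cells in DMSO. The ES libraries lay above the DMSO libraries in both genotypes, and SQLE was called in FDX1-OE cells (log2 change 0.33, SE 0.06, adjusted p = 0.00114) but not in control cells (log2 change 0.12, adjusted p = 0.154). LSS, which closes the sterol rings to give lanosterol, was at 18.9 and 16.5 FPKM in FDX1-OE cells in ES, against 12.1 and 11.2 FPKM in FDX1-OE cells in DMSO, and at 13.6 and 12.1 FPKM in control cells in ES, against 11.0 and 11.9 FPKM in control cells in DMSO. The groups did not overlap in either genotype, and LSS rose in FDX1-OE cells (log2 change 0.57, SE 0.08, adjusted p = 0.000232) and was not called in control cells (log2 change 0.15, adjusted p = 0.171).

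The largest change in the sterol arm was at TM7SF2, one of 2 enzymes that reduce the same double bond of the sterol ring after lanosterol is demethylated. TM7SF2 was at 76.2 and 72.3 FPKM in FDX1-OE cells in ES, against 38.7 and 35.2 FPKM in FDX1-OE cells in DMSO, and at 57.0 and 47.0 FPKM in control cells in ES, against 48.1 and 47.6 FPKM in control cells in DMSO. The FDX1-OE cells held both the highest libraries, in ES, and the lowest, in DMSO. TM7SF2 rose 1.98-fold in FDX1-OE cells (log2 change 0.99, SE 0.08, adjusted p = 5.98e-06), and its change in control cells was 0.11 with adjusted p = 0.31. Without control ES replicate 2 it was called in control cells too (log2 change 0.25, adjusted p = 0.0311). The other reductase of this step, LBR, which is also a protein of the inner nuclear membrane that binds lamins and chromatin, was at 30.2 and 30.3 FPKM in FDX1-OE cells in ES, against 45.2 and 48.6 FPKM in FDX1-OE cells in DMSO, and at 34.1 and 36.8 FPKM in control cells in ES, against 48.8 and 46.7 FPKM in control cells in DMSO. Every ES library was below every DMSO library. LBR fell in FDX1-OE cells (log2 change -0.62, SE 0.06, adjusted p = 1.61e-05) and in control cells (log2 change -0.42, SE 0.06, adjusted p = 0.000545), so the enzymes of this shared step had changes of opposite sign in FDX1-OE cells.

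The demethylation steps were divided. CYP51A1, the lanosterol demethylase, was at 11.8 and 11.7 FPKM in FDX1-OE cells in ES, against 8.14 and 9.99 FPKM in FDX1-OE cells in DMSO, and at 8.54 and 8.16 FPKM in control cells in ES, against 9.24 and 7.79 FPKM in control cells in DMSO. The FDX1-OE libraries in ES stood above the rest by a small margin. It rose in FDX1-OE cells (log2 change 0.35, SE 0.10, adjusted p = 0.0111), a call lost without FDX1-OE DMSO replicate 1 (adjusted p = 0.111). MSMO1, the methyl sterol monooxygenase, was at 14.7 and 16.0 FPKM in FDX1-OE cells in ES, against 10.3 and 11.7 FPKM in FDX1-OE cells in DMSO, and at 11.3 and 11.7 FPKM in control cells in ES, against 11.8 and 9.52 FPKM in control cells in DMSO. The FDX1-OE groups did not overlap, the control groups did, and MSMO1 rose in FDX1-OE cells (log2 change 0.45, SE 0.10, adjusted p = 0.00243). NSDHL, the dehydrogenase that works after MSMO1 in the same demethylation, went the other way, at 38.7 and 36.5 FPKM in FDX1-OE cells in ES, against 51.9 and 47.6 FPKM in FDX1-OE cells in DMSO, and at 39.0 and 38.5 FPKM in control cells in ES, against 53.4 and 47.6 FPKM in control cells in DMSO. The ES libraries were below the DMSO libraries in both genotypes, and NSDHL fell by near-equal amounts (log2 change -0.39, adjusted p = 0.000677 in FDX1-OE cells and log2 change -0.37, adjusted p = 0.00204 in control cells). HSD17B7, which completes this step, lay between 7.31 and 10.0 FPKM and was called in neither genotype, except as lower in control cells without control DMSO replicate 2 (adjusted p = 0.0492).

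The last steps differed from one another. EBP, the sterol isomerase, lay between 32.6 and 42.5 FPKM and fell in control cells (log2 change -0.25, adjusted p = 0.0256), with a change of -0.05 in FDX1-OE cells. The EBP call was lost on leaving out control DMSO replicate 1 (adjusted p = 0.205), control ES replicate 1 (0.0662) and also control ES replicate 2 (0.0993). SC5D, the sterol desaturase after it, was at 12.2 and 12.8 FPKM in FDX1-OE cells in ES, against 6.95 and 8.00 FPKM in FDX1-OE cells in DMSO, and at 10.8 and 10.0 FPKM in control cells in ES, against 8.09 and 7.21 FPKM in control cells in DMSO. The ES libraries exceeded the DMSO libraries throughout. SC5D rose in FDX1-OE cells (log2 change 0.67, SE 0.08, adjusted p = 6.87e-05) and in control cells (log2 change 0.40, SE 0.08, adjusted p = 0.00367). DHCR7, which reduces the product of SC5D, was at 47.1 and 44.7 FPKM in FDX1-OE cells in ES, against 46.5 and 44.4 FPKM in FDX1-OE cells in DMSO, and at 39.2 and 35.4 FPKM in control cells in ES, against 48.9 and 46.1 FPKM in control cells in DMSO. The control ES libraries were the lowest of the 8, and the FDX1-OE groups overlapped. DHCR7 fell in control cells (log2 change -0.34, SE 0.06, adjusted p = 0.0024), and in FDX1-OE cells its change was 0.01 with a 95% interval of -0.13 to 0.16.

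Among the regulators, INSIG1 moved in opposite directions in the 2 genotypes and SREBF1 fell in both. INSIG1, itself a known target of SREBP factors as well as their inhibitor, was at 61.9 and 62.6 FPKM in FDX1-OE cells in ES, against 47.7 and 46.0 FPKM in FDX1-OE cells in DMSO, and at 38.3 and 39.3 FPKM in control cells in ES, against 44.8 and 43.8 FPKM in control cells in DMSO. Its FDX1-OE libraries in ES were the highest of the 8 and its control libraries in ES the lowest, with replicates close together. INSIG1 rose in FDX1-OE cells (log2 change 0.40, SE 0.05, adjusted p = 8.04e-05) and fell in control cells (log2 change -0.19, SE 0.05, adjusted p = 0.015). The call in control cells was lost on leaving out control DMSO replicate 1 (adjusted p = 0.077) and on leaving out control ES replicate 1 (0.075). Its paralogue INSIG2 was low, at 2.27 and 2.63 FPKM in FDX1-OE cells in ES, against 1.73 and 1.93 FPKM in FDX1-OE cells in DMSO, and at 1.92 and 2.00 FPKM in control cells in ES, against 1.96 and 1.26 FPKM in control cells in DMSO. The FDX1-OE groups did not overlap, the control groups did, and INSIG2 was called in neither (adjusted p = 0.0655 in FDX1-OE cells and 0.228 in control cells). It was called higher in FDX1-OE cells without control DMSO replicate 1 (0.0247) or replicate 2 (0.0241), and in control cells without control DMSO replicate 1 (0.0333).

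SREBF1 was at 14.2 and 13.3 FPKM in FDX1-OE cells in ES, against 20.1 and 19.4 FPKM in FDX1-OE cells in DMSO, and at 13.0 and 12.9 FPKM in control cells in ES, against 18.7 and 21.0 FPKM in control cells in DMSO. All 4 ES libraries lay below all 4 DMSO libraries. SREBF1 fell in FDX1-OE cells (log2 change -0.49, SE 0.07, adjusted p = 0.000156) and in control cells (log2 change -0.57, SE 0.07, adjusted p = 0.00019). SREBF2 was at 50.5 and 48.9 FPKM in FDX1-OE cells in ES, against 42.6 and 41.1 FPKM in FDX1-OE cells in DMSO, and at 43.1 and 41.3 FPKM in control cells in ES, against 41.0 and 44.7 FPKM in control cells in DMSO. The FDX1-OE libraries in ES were the highest, and the control groups overlapped. SREBF2 rose in FDX1-OE cells by a small amount (log2 change 0.24, SE 0.06, adjusted p = 0.00502), which was not called after scaling by median ratios (log2 change 0.10, adjusted p = 0.168), and its change in control cells was -0.02. The files do not part the transcripts of SREBF1, so its isoforms were not told apart. SCAP lay between 25.6 and 35.4 FPKM and fell in FDX1-OE cells (log2 change -0.24, adjusted p = 0.0216), a call lost on leaving out FDX1-OE DMSO replicate 1 (adjusted p = 0.114) and on leaving out FDX1-OE ES replicate 2 (0.174).

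In the fatty acid arm FASN fell in both genotypes. FASN, the synthase that builds palmitate, was at 73.0 and 64.4 FPKM in FDX1-OE cells in ES, against 108 and 97.1 FPKM in FDX1-OE cells in DMSO, and at 66.6 and 62.2 FPKM in control cells in ES, against 92.0 and 105 FPKM in control cells in DMSO. All ES libraries were below all DMSO libraries by a wide margin. FASN was 0.67-fold its DMSO level in FDX1-OE cells (log2 change -0.57, SE 0.08, adjusted p = 0.000216) and 0.66-fold in control cells (log2 change -0.60, SE 0.08, adjusted p = 0.000431). ACLY, which makes cytosolic acetyl-CoA from citrate for both arms, was at 109 and 97.6 FPKM in FDX1-OE cells in ES, against 129 and 129 FPKM in FDX1-OE cells in DMSO, and at 109 and 107 FPKM in control cells in ES, against 120.1 and 129.9 FPKM in control cells in DMSO. The ES libraries were again the lower ones in both genotypes. ACLY fell in FDX1-OE cells (log2 change -0.32, adjusted p = 0.00122) and in control cells (log2 change -0.21, adjusted p = 0.0198), where the call was lost on leaving out control DMSO replicate 2 (adjusted p = 0.14), control ES replicate 1 (0.0575) and also control ES replicate 2 (0.0781). ACACA, the acetyl-CoA carboxylase that makes malonyl-CoA, lay between 11.6 and 14.9 FPKM and fell in FDX1-OE cells (log2 change -0.29, adjusted p = 0.003) but was not called in control cells (log2 change -0.15, adjusted p = 0.079).

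SCD, which puts the double bond into stearate and palmitate, was at 66.2 and 59.7 FPKM in FDX1-OE cells in ES, against 66.7 and 65.9 FPKM in FDX1-OE cells in DMSO, and at 48.9 and 50.8 FPKM in control cells in ES, against 66.7 and 68.7 FPKM in control cells in DMSO. The control libraries in ES stood below the other 6 libraries. SCD fell in control cells (log2 change -0.43, SE 0.06, adjusted p = 0.000395), and its change in FDX1-OE cells was -0.08 with a 95% interval of -0.21 to 0.05. After scaling by median ratios that change was -0.22 and called (adjusted p = 0.01). ELOVL6, which elongates palmitate, was at 2.03 and 2.02 FPKM in FDX1-OE cells in ES, against 3.08 and 3.21 FPKM in FDX1-OE cells in DMSO, and at 2.94 and 2.50 FPKM in control cells in ES, against 3.26 and 2.81 FPKM in control cells in DMSO. The FDX1-OE libraries in ES were the lowest, and the control groups overlapped. ELOVL6 fell in FDX1-OE cells (log2 change -0.45, SE 0.09, adjusted p = 0.00158) and was not called in control cells (log2 change -0.12, adjusted p = 0.316).

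The exception in the fatty acid arm was FADS2, the desaturase of polyunsaturated fatty acids next to FADS1 in that pathway. FADS2 was at 4.39 and 4.47 FPKM in FDX1-OE cells in ES, against 1.69 and 1.80 FPKM in FDX1-OE cells in DMSO, and at 3.97 and 3.90 FPKM in control cells in ES, against 1.55 and 1.69 FPKM in control cells in DMSO. All 4 ES libraries stood far above all 4 DMSO libraries. FADS2 rose 1.98-fold on the FPKM + 1 scale in FDX1-OE cells (log2 change 0.98, SE 0.08, adjusted p = 3.95e-06) and 1.88-fold in control cells (log2 change 0.91, SE 0.08, adjusted p = 2.24e-05), and this scale understates the change of such low genes. FADS1 lay between 3.40 and 3.93 FPKM in all libraries and was called in neither genotype.

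**Figure D2:**
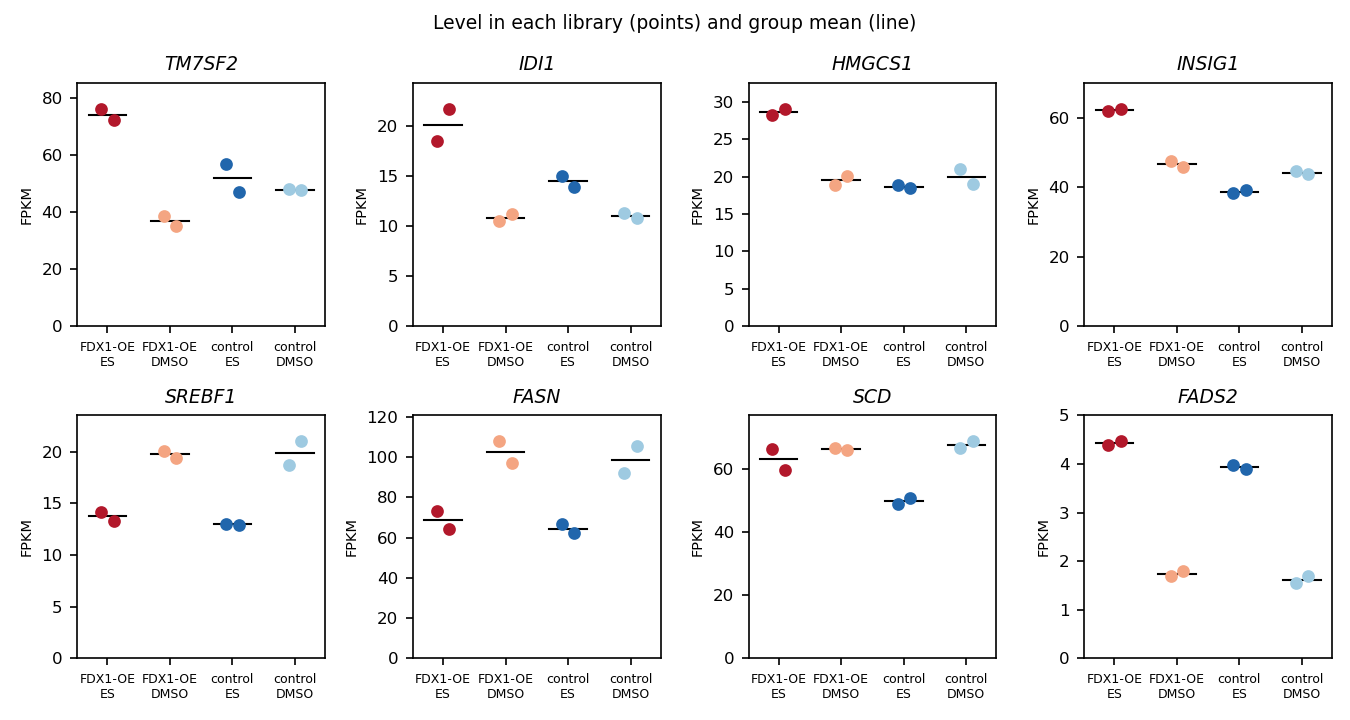
FPKM in each library (points) with the group mean (line) for 4 genes of the sterol arm and its regulation and 4 genes of the fatty acid arm and its regulation, by group. TM7SF2, IDI1, HMGCS1 and INSIG1 are highest in FDX1-OE cells in ES, SREBF1 and FASN are lower in both ES groups, SCD is lowest in control cells in ES, and FADS2 is higher in both ES groups.

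Summed over its enzymes, the sterol arm was highest in FDX1-OE cells in ES, and the fatty acid arm was lower in both ES groups. The 20 sterol enzymes summed to 616 and 629.8 FPKM in FDX1-OE cells in ES, against 536 and 527 FPKM in FDX1-OE cells in DMSO, and to 534 and 516 FPKM in control cells in ES, against 569 and 541 FPKM in control cells in DMSO. The FDX1-OE libraries in ES had the highest sterol sums, and the control libraries in ES lay below the control libraries in DMSO. The 8 fatty acid enzymes summed to 271 and 243 FPKM in FDX1-OE cells in ES, against 327 and 316 FPKM in FDX1-OE cells in DMSO, and to 247 and 242 FPKM in control cells in ES, against 301 and 327 FPKM in control cells in DMSO. The fatty acid sum was lower in every ES library, and ACLY, FASN and SCD make up most of it.

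The ratio of the sterol sum to the fatty acid sum was 2.28 and 2.59 in FDX1-OE cells in ES, against 1.64 and 1.67 in FDX1-OE cells in DMSO. It was 2.16 and 2.13 in control cells in ES, against 1.89 and 1.66 in control cells in DMSO. The ratio was thus higher in ES in both genotypes, with no overlap. The median log2 change of the sterol arm minus that of the fatty acid arm was 0.58 in FDX1-OE cells and 0.14 in control cells. The spread between replicates was 0.08, the SD within groups of an arm difference computed for each library. That SD took in all 8 fatty acid enzymes, with ACSS2, while the differences of median changes rest on the 7 tested. In control cells the difference of median changes came to 0.30 when genes needed a mean of 5 FPKM, a limit that removes FADS1, FADS2, ELOVL6 and GGPS1. These are descriptions of chosen genes and carry no test.

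**Figure D3:**
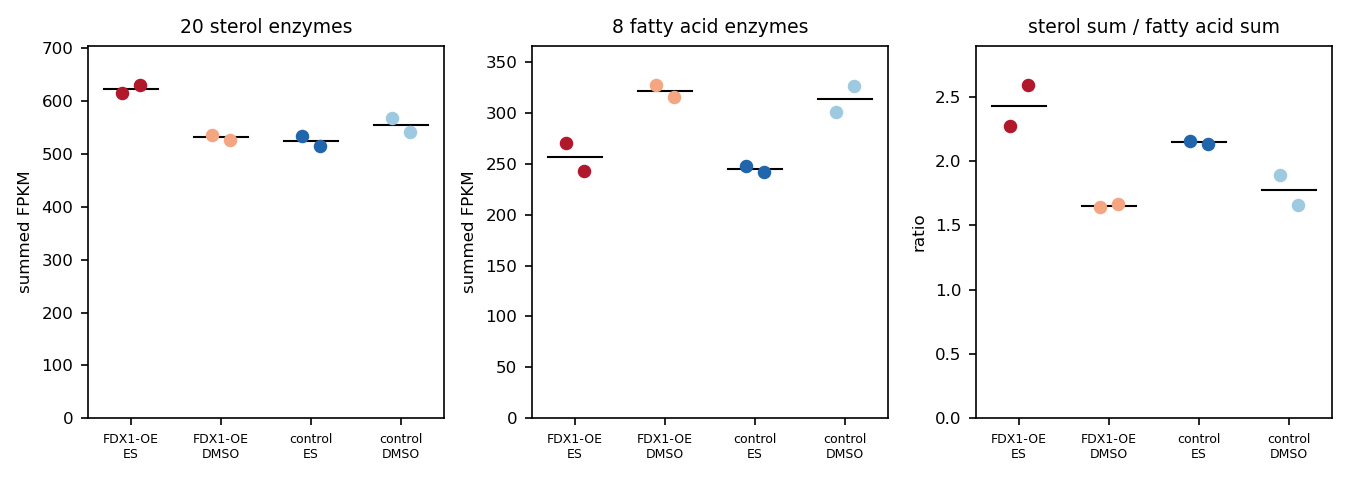
Summed FPKM of the 20 sterol enzymes and of the 8 fatty acid enzymes, and the ratio of these sums, in each library (points) with group means (lines). The sterol sum is highest in FDX1-OE cells in ES, the fatty acid sum is lower in both ES groups, and the ratio reaches 2.59 in FDX1-OE cells in ES.

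In DMSO, without the drug, none of the 32 members passed the test (limma) between FDX1-OE and control cells. The calls were 0 higher and 0 lower, where 0.51% of all genes tested were called, 0.428% higher and 0.0816% lower, and 1 member, TM7SF2, had an unadjusted p below 0.05. TM7SF2 also had the largest difference, at 38.7 and 35.2 FPKM in FDX1-OE cells and 48.1 and 47.6 FPKM in control cells (log2 change -0.37, SE 0.08, adjusted p = 0.111). Its groups did not overlap, and it was called lower by voom on recovered reads (adjusted p = 0.0384), in a fit of the 4 DMSO libraries alone (0.0171), and without control ES replicate 1 (0.0273) or control ES replicate 2 (0.0276). All other members differed by at most 0.13 on the log2 scale.

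In ES, 10 of 20 sterol enzymes, INSIG1, SREBF2 and SCD were higher in FDX1-OE cells than in control cells, and LBR and ELOVL6 were lower. Of 32 members, 13 were called higher and 2 lower in FDX1-OE cells, where 13.6% of all genes tested were called higher and 7.78% lower, 21.4% in all. The 6 calls that held in every alternative run were INSIG1 (log2 change 0.67, SE 0.05, adjusted p = 2.75e-05), HMGCS1 (log2 change 0.60, SE 0.06, adjusted p = 0.000256), MVD (log2 change 0.53, SE 0.10, adjusted p = 0.00504), TM7SF2 (log2 change 0.51, SE 0.08, adjusted p = 0.00254), IDI1 (log2 change 0.45, SE 0.08, adjusted p = 0.00431) and SCD (log2 change 0.33, SE 0.06, adjusted p = 0.00386). The other sterol enzymes called higher were CYP51A1 (0.45), LSS (0.43), MSMO1 (0.38), ACAT2 (0.30), DHCR7 (0.29) and FDFT1 (0.24), and SREBF2 differed by 0.23, all as log2 differences. The median difference was 0.24 in the sterol arm and -0.01 in the fatty acid arm, beside 0.03 over all genes tested. This comparison and that of ES with DMSO in FDX1-OE cells share the FDX1-OE libraries in ES, and the one in control cells shares the control libraries in ES.

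Many of those calls rested on single libraries or on the processing. In limma after scaling by median ratios, FDFT1 (adjusted p = 0.0539), ACAT2 (0.0561) and SREBF2 (0.0514) did not pass, and SCAP was called lower (0.0388). In limma without the filter on low values, FDFT1 (0.0537), CYP51A1 (0.0581), MSMO1 (0.084), LBR (0.0529), ACAT2 (0.108) and ELOVL6 (0.0935) did not pass. Without control ES replicate 2, 6 members were called higher, and LSS (adjusted p = 0.0561), CYP51A1 (0.0708), MSMO1 (0.073), DHCR7 (0.092), FDFT1 (0.0988), SREBF2 (0.121), LBR (0.181), ACAT2 (0.184) and ELOVL6 (0.0564) did not pass. Without control ES replicate 1, FDFT1 (0.0597), MSMO1 (0.0678) and ELOVL6 (0.191) did not pass. Without FDX1-OE ES replicate 1, LSS (0.0525), CYP51A1 (0.0574), DHCR7 (0.0765), LBR (0.105), SREBF2 (0.109) and ELOVL6 (0.141) did not pass. Without FDX1-OE ES replicate 2, LBR (0.0824), MSMO1 (0.1), FDFT1 (0.115), ELOVL6 (0.123) and ACAT2 (0.176) did not pass. ELOVL6 was also lost without FDX1-OE DMSO replicate 1 (0.0555) or replicate 2 (0.0561).

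The ES response itself differed between the genotypes at 6 members. The interaction, the log2 change with ES in FDX1-OE cells less the one in control cells, was called higher for 6 of 32 members and lower for 0 (limma; 0 also with voom, and 2 at an unadjusted p below 0.05), where 3.25% of all genes tested were called higher and 1.05% lower, 4.3% in all. The 6 were TM7SF2 (log2 change 0.88, SE 0.12, adjusted p = 0.00451), MVD (log2 change 0.65, SE 0.14, adjusted p = 0.0332), HMGCS1 (log2 change 0.63, SE 0.09, adjusted p = 0.00718), INSIG1 (log2 change 0.59, SE 0.07, adjusted p = 0.00308), IDI1 (log2 change 0.47, SE 0.11, adjusted p = 0.0467) and SCD (log2 change 0.36, SE 0.08, adjusted p = 0.0412). HMGCS1 and INSIG1 were called in every alternative, and TM7SF2 in all but the fit without a filter on low values (adjusted p = 0.0569). With all 8 libraries, that fit also lost MVD (0.136), IDI1 (0.135) and SCD (0.0941). IDI1 and SCD were lost with a pseudocount of 0.1 as well (0.0587 and 0.053), and after scaling by median ratios (0.0557 and 0.0661). MVD was lost without either control DMSO library, FDX1-OE DMSO replicate 2, control ES replicate 2 or either FDX1-OE ES library (adjusted p between 0.0676 and 0.111). IDI1 was lost without either control DMSO library, either FDX1-OE DMSO library, control ES replicate 2 or FDX1-OE ES replicate 2 (between 0.0911 and 0.164), and SCD without any one of 7 libraries, all but FDX1-OE ES replicate 2 (between 0.0667 and 0.128). Further members came close: DHCR7 had an interaction of 0.36 (adjusted p = 0.0539) and LSS 0.41 (adjusted p = 0.072), and without control ES replicate 1 both were called (0.0272 for DHCR7 and 0.0487 for LSS). For FASN and SREBF1 the interaction was 0.03 (95% interval -0.22 to 0.29) and 0.08 (-0.13 to 0.29).

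**Figure D4:**
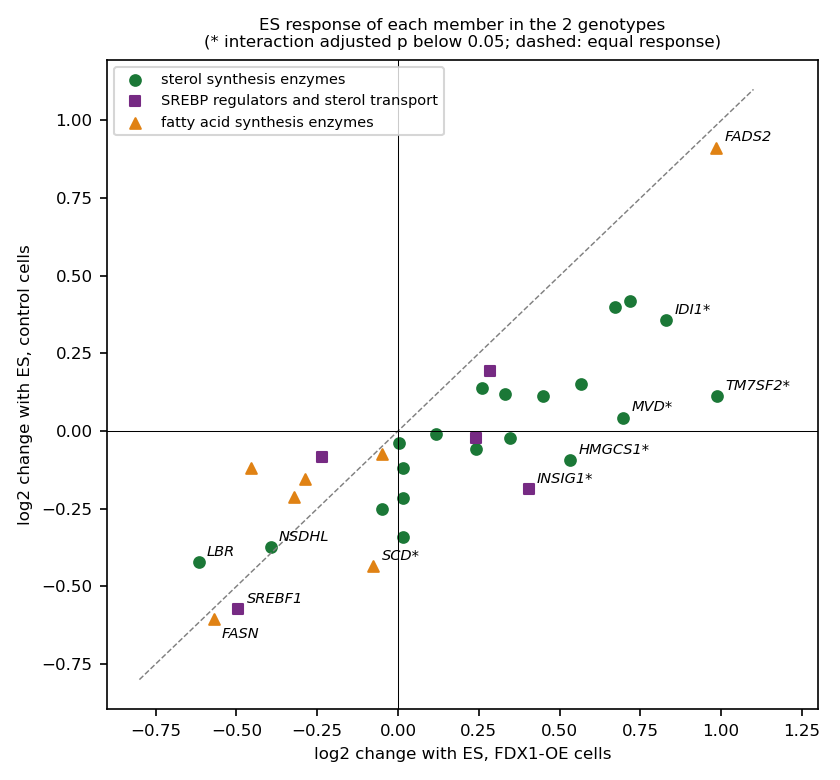
Log2 change with ES in FDX1-OE cells (x axis) against that in control cells (y axis) for each of the 32 members tested, by arm, with the dashed line at equal responses and an asterisk at the 6 genes with a called interaction. All 6 lie below the line, with TM7SF2 farthest from it, while FASN, NSDHL, SREBF1 and FADS2 lie close to it.

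Promoters are shown for 5 of the 6 genes with a called interaction, whose ES responses differed between genotypes in the same direction, and for SREBF2, which is the one member whose window holds the sterol element searched. IDI1 has several windows in the RefSeq table and is not printed. Each run is the 250 bases before the RefSeq start, 5′ to 3′ on the gene's strand (GRCh38.p14, from RefSeq, matched by symbol). Capitals mark matches on either strand to the NF-Y box CCAAT, the sterol regulatory element TCACNCCAC and the E-box palindrome TCACGTGA.
INSIG1: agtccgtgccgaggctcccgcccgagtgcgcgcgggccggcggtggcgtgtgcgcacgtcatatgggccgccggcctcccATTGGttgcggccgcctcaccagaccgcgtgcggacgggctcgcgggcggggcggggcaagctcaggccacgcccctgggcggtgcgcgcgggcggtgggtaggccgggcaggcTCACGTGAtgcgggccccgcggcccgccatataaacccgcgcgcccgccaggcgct
HMGCS1: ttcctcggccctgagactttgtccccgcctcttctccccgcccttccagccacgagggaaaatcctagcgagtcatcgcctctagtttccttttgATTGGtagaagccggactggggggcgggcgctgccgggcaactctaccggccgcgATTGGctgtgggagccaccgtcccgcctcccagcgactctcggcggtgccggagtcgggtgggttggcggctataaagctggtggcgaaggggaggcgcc
MVD: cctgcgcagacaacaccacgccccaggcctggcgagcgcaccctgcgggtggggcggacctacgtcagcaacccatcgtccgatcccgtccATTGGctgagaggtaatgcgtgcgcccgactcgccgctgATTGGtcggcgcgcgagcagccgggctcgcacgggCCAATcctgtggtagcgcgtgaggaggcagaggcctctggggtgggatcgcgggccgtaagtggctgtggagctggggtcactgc
TM7SF2: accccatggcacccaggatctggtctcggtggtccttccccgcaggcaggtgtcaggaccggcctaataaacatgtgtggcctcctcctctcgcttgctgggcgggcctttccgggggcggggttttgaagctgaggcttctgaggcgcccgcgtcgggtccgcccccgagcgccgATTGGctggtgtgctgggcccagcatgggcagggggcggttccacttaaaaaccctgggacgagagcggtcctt
SCD: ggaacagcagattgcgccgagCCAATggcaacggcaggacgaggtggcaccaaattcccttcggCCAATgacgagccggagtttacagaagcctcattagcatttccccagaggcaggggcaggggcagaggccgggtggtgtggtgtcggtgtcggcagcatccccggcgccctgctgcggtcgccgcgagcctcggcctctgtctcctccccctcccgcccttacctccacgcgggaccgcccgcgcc
SREBF2: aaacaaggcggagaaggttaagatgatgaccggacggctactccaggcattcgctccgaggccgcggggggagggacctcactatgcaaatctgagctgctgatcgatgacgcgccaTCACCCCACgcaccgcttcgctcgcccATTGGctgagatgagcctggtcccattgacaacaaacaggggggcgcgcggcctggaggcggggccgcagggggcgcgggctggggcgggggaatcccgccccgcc

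The windows lie at chr7:155297628-155297877 (+ strand) for INSIG1, chr5:43313413-43313662 (- strand) for HMGCS1, chr16:88663092-88663341 (- strand) for MVD, chr11:65111622-65111871 (+ strand) for TM7SF2, chr10:100346983-100347232 (+ strand) for SCD and chr22:41832855-41833104 (+ strand) for SREBF2, all directly upstream of an annotated start. INSIG1 holds the E-box palindrome from base -56 to -49 and an NF-Y box, and SREBF2 holds the sterol element from -133 to -125 and an NF-Y box at -106. HMGCS1 and SCD hold 2 NF-Y boxes each, MVD 3 and TM7SF2 1. Of the 34 members, 30 had a window in the RefSeq table, 43 windows in all, and FDFT1, SQLE, ACAT2 and FASN had none. An NF-Y box was in 25 of these 43 windows, or 58.14%, and in 32.01% of all 35116 windows in the table. By arm it was in 16 of 24 sterol windows and in 6 of 12 fatty acid windows. The sterol element was in 1 of the 43 member windows, or 2.33%, against 0.88% of all windows. The E-box palindrome was also in 1, or 2.33%, against 0.85%. Only the motifs as written were searched, so windows without a match may hold other forms of them. The sterol element and the palindrome begin with the same 4 letters. A match is a description of these letters, not of binding, and the palindrome was added after the promoters had been seen. The files' own build is hg19, per the submitters' processing notes, so these windows were joined by symbol and not by coordinates.

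Further genes known as SREBP targets, not among the 34, also rose in FDX1-OE cells. Of 13 tested genes listed as other SREBP targets and sterol uptake, 8 were called higher and 0 lower with ES in FDX1-OE cells (limma; 0 lower also with voom and at an unadjusted p below 0.05), with a median log2 change of 0.28, where 37% of all genes tested were higher and 19.2% lower. In control cells 4 were higher and 1 lower, with a median of -0.06, a share of higher calls near that of all genes tested (25.5%). LPIN1, a phosphatidate phosphatase, was at 29.9 and 25.4 FPKM in FDX1-OE cells in ES, against 15.2 and 14.8 FPKM in DMSO, and at 19.1 and 16.7 FPKM in control cells in ES, against 13.6 and 14.1 FPKM in DMSO. It rose in FDX1-OE cells (log2 change 0.83, adjusted p = 2.02e-05) and in control cells (log2 change 0.34, adjusted p = 0.0101). The other genes of smallest p in FDX1-OE cells were NPC1, which exports cholesterol from lysosomes (log2 change 0.58 in FDX1-OE and 0.32 in control cells), the acyl-CoA synthetase ACSL3 (0.55 and, not called, 0.21) and ERG28, a scaffold of sterol enzymes (0.50 and 0.55). The interaction was called for LPIN1 (log2 change 0.49, adjusted p = 0.0461) and for the acetoacetyl-CoA synthetase AACS (log2 change 0.37, adjusted p = 0.0433), where 4.3% of all genes tested were called.

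The genes that process SREBP and degrade sterol-regulated proteins had few calls. Of 12 tested, 3 were higher in FDX1-OE cells, where 37% of all genes tested were higher, with a median log2 change of 0.06, and the median in control cells was -0.04. The 3 were ERLIN1 (log2 change 0.33, adjusted p = 0.00267), a membrane protein that helps degrade sterol-regulated proteins, FBXW7 (log2 change 0.28, adjusted p = 0.00923), a ubiquitin ligase subunit that targets nuclear SREBP, and SPRING1 (log2 change 0.16, adjusted p = 0.0383). The SREBP proteases MBTPS1 and MBTPS2 were called in neither genotype.

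Among genes of LXR, sterol efflux and esterification, 5 of 12 tested were higher and 2 lower in FDX1-OE cells, near the shares of all genes tested (37% and 19.2%). In control cells 5 were higher and 3 lower, where 25.5% of all genes tested were higher and 12.9% lower. The sterol exporters ABCG1 and ABCA1, known LXR targets, fell in both: ABCG1 by a log2 change of -0.64 (adjusted p = 0.000122) in FDX1-OE cells and -0.61 (0.000478) in control cells, and ABCA1 by -0.57 (0.000137) and -0.41 (0.00256). The lysosomal lipase LIPA (0.79 in FDX1-OE and 0.36 in control cells) and the lysosomal sterol carrier NPC2 (0.53 and 0.35) rose in both.

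Of 13 tested genes of the branches that take isoprenoids away from sterols, 1 was higher and 2 lower in FDX1-OE cells, where 56.2% of all genes tested were called, and 1 was higher and 1 lower in control cells, where 38.4% were called. The dolichol kinase DOLK rose (0.29 in FDX1-OE and 0.34 in control cells), and RABGGTB, which prenylates Rab proteins, fell (-0.35 and -0.29). Among 16 tested genes of fatty acid elongation, activation and glycerolipid synthesis, 8 were higher and 2 lower in FDX1-OE cells, where 37% of all genes tested were higher and 19.2% lower. In control cells 6 were higher and 1 lower, where 25.5% of all genes tested were higher and 12.9% lower. LPIN2 (0.79 in FDX1-OE and 0.39 in control cells) and DGAT1, which makes triglycerides (0.74 and 0.29), rose in both, as did the acyl-CoA synthetase ACSL5 (0.31 and 0.24).

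**Figure D5:**
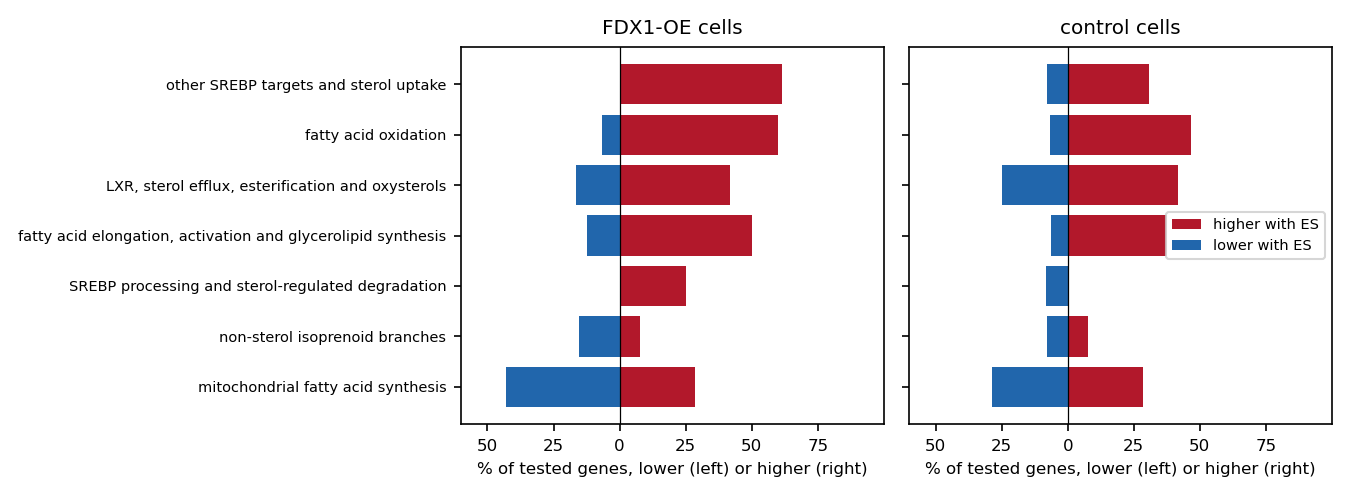
Share of the tested genes of each related list that were called higher (red, right) or lower (blue, left) with ES, in FDX1-OE cells and in control cells, in percent of tested genes. The list of other SREBP targets has 8 of 13 genes higher in FDX1-OE cells and 4 of 13 in control cells.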

How the data were processed

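RNA of 8 libraries was sequenced. The submitters' processing notes name build hg19 and the tools HISAT2, HTSeq and R 3.2.0, and the sources used here do not state the annotation or strand setting. The deposited values were read as FPKM, made by the authors, since the files' headers name no unit: 99.9% of genes came out as whole reads in all libraries within 0.02 read. Totals lay between 33435438 and 35883528 reads, and 3 reads of a gene of 1 kilobase come to between 0.0836 and 0.0897 FPKM, a floor for counting error only.

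Groups were compared on log2(FPKM + 1) with limma (version 3.58.1, under R 4.3.3), fitting 4 group means to 8 libraries (4 residual and 6.62 prior degrees of freedom, mean trend), with two-sided tests and Benjamini-Hochberg adjustment over the 9805 genes that reached 1 FPKM in 2 or more libraries. Intervals are 95% intervals of that fit. The fit was tested on simulated data. Values are given for members called in at least 1 comparison with an absolute log2 change of at least 0.3, and for the INSIG and SREBF pairs, with other members by range. Related lists are given by counts and up to 4 genes of smallest p, and AACS, MBTPS1 and MBTPS2 were named after their values were seen. The result of 1 gene of these lists is not reported here. The members and lists were chosen with earlier results of these data known. Alternatives were a pseudocount of 0.1, no filter, a mean of at least 5 FPKM, scaling by median ratios, the 4 libraries of a comparison alone, the replicate block, leaving out each library, and voom on recovered reads. The planned negative binomial test was not run because the files hold FPKM, and voom was added after seeing the data. Replicates differed by more than sampling noise (chi-square per degree of freedom between 6.38 and 9.26).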

Additional observations from a re-analysis of the deposited data

Results flagged for a closer look

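The ES response differed between FDX1-OE and control cells, by the interaction test, at 6 of 32 members tested, all called higher. Of all genes tested, 3.25% were called higher and 1.05% lower, 4.3% in all. Only HMGCS1 and INSIG1 were called in every alternative, and TM7SF2, MVD, IDI1 and SCD were each lost in at least 1. The difference, as the log2 change in FDX1-OE cells minus that in control cells, was 0.88 for TM7SF2, 0.65 for MVD, 0.63 for HMGCS1, 0.59 for INSIG1, 0.47 for IDI1 and 0.36 for SCD. Both FDX1-OE libraries in ES were above both FDX1-OE libraries in DMSO for TM7SF2, MVD, HMGCS1, INSIG1 and IDI1, and for SCD 1 of them lay below both and the other between them.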

How the results depend on the processing

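No result changed direction under an alternative while called. The count of members and the arm difference (sterol minus fatty acid median log2 change) kept within 1.5 times, or within the spread between replicates, under all settings but these. With a mean of at least 5 FPKM the arm difference in control cells was 0.30 and 1 member was lower in FDX1-OE than control cells in ES, since that limit removes FADS1, FADS2, ELOVL6 and GGPS1. Without a filter the arm difference in FDX1-OE cells was 0.48. The sterol median stayed at 0.2951 there, and the fatty acid median went from -0.2862 to -0.1812 as ACSS2 entered, making 8 genes. Without a filter the lower calls of FDX1-OE against control cells in ES came to 0 and the interaction had 2 higher calls. The cause of these changes in calls was not tested. With voom on recovered reads the arm difference in FDX1-OE cells was 0.66, 1 member was lower in FDX1-OE than control cells in DMSO and the interaction had 10 higher calls. In fits of the 4 libraries of a comparison, 1 member was lower in FDX1-OE than control cells both in DMSO and in ES. Leaving out 1 library at a time gave 6 to 10 lower calls and an arm difference of 0.0906 to 0.2206 for ES in control cells, an arm difference of 0.47 to 0.69 for ES in FDX1-OE cells, 0 to 1 lower calls and an arm difference of -0.1936 to 0.01252 for FDX1-OE against control cells in DMSO, 6 to 13 higher and 0 to 2 lower calls for the same in ES, and 3 to 7 higher calls and an arm difference of 0.15 to 0.42 for the interaction. With 1 library left in a group, that library was assumed to vary like the others. Of the called members, 10 of 14 for ES in control cells, 18 of 23 for ES in FDX1-OE cells, 6 of 15 for the genotypes in ES and 2 of 6 for the interaction were called in every alternative that tested them. Deviations of same-numbered libraries were correlated between -0.18 and 0.181 over the 6 pairs of groups, with 3 pairs above 0.1 and 3 below 0, and the labels name no shared culture or day, so the numbers were not taken as pairs. With the replicate block, 1 member, TM7SF2, was lower in FDX1-OE than control cells in DMSO (adjusted p = 0.0398), DHCR7 was called in the interaction (0.0269), and no other call changed. Depth limits the low genes most: INSIG2 had 150 to 306 reads and FADS2 193 to 565 reads.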

Other observations

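Of 15 genes that burn fatty acids in mitochondria, all tested, 9 were higher and 1 lower with ES in FDX1-OE cells, with a median log2 change of 0.23, where 37% of all genes tested were higher and 19.2% lower. In control cells 7 were higher and 1 lower, with a median of 0.17, where 25.5% of all genes tested were higher and 12.9% lower. The dehydrogenases ACADVL (0.45 in FDX1-OE and 0.24 in control cells) and ACADM (0.38 and 0.27) rose in both genotypes. The exception was CPT1A, the carnitine transferase that admits long-chain fatty acids to mitochondria, at 6.27 and 5.50 FPKM in FDX1-OE cells in ES, against 8.62 and 8.56 FPKM in DMSO, and 6.50 and 6.20 FPKM in control cells in ES, against 7.80 and 8.08 FPKM in DMSO. CPT1A fell in FDX1-OE cells (log2 change -0.48, adjusted p = 0.000305) and in control cells (log2 change -0.28, adjusted p = 0.0123). The interaction was called for 0 of the 15 genes (limma; 0 also with voom, and 3 at an unadjusted p below 0.05), where 4.3% of all genes tested were called.

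Mitochondria hold a separate fatty acid synthesis pathway, which makes the octanoyl precursor of the lipoyl group. Of its 7 genes, 2 were higher and 3 lower with ES in FDX1-OE cells, where 37% of all genes tested were higher and 19.2% lower. In control cells 2 were higher and 2 lower, where 25.5% of all genes tested were higher and 12.9% lower. ACSF3, the malonyl-CoA synthetase, rose in FDX1-OE cells (log2 change 0.49, adjusted p = 0.000281) and in control cells (log2 change 0.27, adjusted p = 0.0144), as did the ketoacyl synthase OXSM (0.36 in FDX1-OE and 0.26 in control cells). HSD17B8, a subunit of the ketoacyl reductase, fell in both (-0.37 and -0.35), and so did NDUFAB1, the acyl carrier protein (-0.18 and -0.34).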
